A study of Mus musculus with 10 samples.

Results

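The Hoxd cluster is a run of 9 genes on mouse chromosome 2, Hoxd1, Hoxd3, Hoxd4, Hoxd8, Hoxd9, Hoxd10, Hoxd11, Hoxd12 and Hoxd13. Its members were taken as the probe sets whose only annotated symbol is one of these names, and each of the 9 genes had 1 such probe set, among 19938 genes with a probe set of their own in all. Levels were measured in bone marrow mesenchymal stromal cells, adherent fibroblast-like cells of the marrow, taken as 5 separate preparations, MSC I, MSC II, MSC III, MSC IV and MSC V. Each preparation was hybridised to 2 arrays, which gives 10 arrays. All preparations came from female mice of the inbred strain C57BL/6J aged 6 to 8 weeks, were grown in the same medium to passage 16 to 17 and carried no named allele or treatment, and none was named as a control. The labels do not say whether the 2 arrays of a preparation were separate cultures, so p-values measure the spread between arrays, which may be technical. These are bulk samples, in which fewer cells of a type and less RNA per cell cannot be told apart.

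Hox genes encode homeodomain transcription factors that give cells a position along the body axis and along the limb. Within a cluster the genes lie in the order in which they are used: those with low numbers act early and towards the head, those with high numbers late and towards the tail, and in the limb Hoxd9 to Hoxd13 pattern successive segments from the upper arm to the digits. Stromal cells and fibroblasts in culture are known to keep much of the Hox pattern of the body site they were taken from.

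Hoxd8 and Hoxd9, which lie side by side, were the members that differed between preparations, 2 of 9 genes beside 14.6% of all genes. Their windows upstream of an annotated start are shown with those of Hoxd10, the next gene on one side, and Hoxd4, a gene on the other side whose difference stayed under the threshold. Each window is the 250 bases before a start that RefSeq annotates on GRCm38.p6, read 5′ to 3′, and all 9 genes matched an entry. The start used for Hoxd10, chr2:74691891, lies inside the annotated gene, chr2:74684273-74695106. Capitals mark matches to 5 short motifs searched on both strands, the NF-Y box CCAAT, the Sp1 site GGGCGG, the TATA box TATAAA, the Hox-Pbx site TGATTNAT and the Meis site TGACAG.
Hoxd10, chr2:74691641-74691890, plus strand: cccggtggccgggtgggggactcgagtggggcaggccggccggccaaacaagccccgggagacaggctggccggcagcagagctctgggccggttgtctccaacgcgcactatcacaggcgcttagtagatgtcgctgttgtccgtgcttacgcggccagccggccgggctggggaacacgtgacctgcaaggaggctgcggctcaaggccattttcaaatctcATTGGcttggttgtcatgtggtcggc
Hoxd9, chr2:74697513-74697762, plus strand: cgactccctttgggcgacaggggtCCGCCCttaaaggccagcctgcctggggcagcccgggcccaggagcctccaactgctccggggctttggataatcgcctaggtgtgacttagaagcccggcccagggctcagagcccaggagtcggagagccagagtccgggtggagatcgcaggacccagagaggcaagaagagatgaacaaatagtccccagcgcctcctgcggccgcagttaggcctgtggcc
Hoxd8, chr2:74704365-74704614, plus strand: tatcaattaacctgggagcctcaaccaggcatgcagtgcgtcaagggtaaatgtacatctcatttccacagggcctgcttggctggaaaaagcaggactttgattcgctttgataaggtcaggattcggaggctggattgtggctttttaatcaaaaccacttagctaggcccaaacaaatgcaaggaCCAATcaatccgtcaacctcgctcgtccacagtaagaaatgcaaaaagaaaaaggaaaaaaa
Hoxd4, chr2:74721728-74721977, plus strand: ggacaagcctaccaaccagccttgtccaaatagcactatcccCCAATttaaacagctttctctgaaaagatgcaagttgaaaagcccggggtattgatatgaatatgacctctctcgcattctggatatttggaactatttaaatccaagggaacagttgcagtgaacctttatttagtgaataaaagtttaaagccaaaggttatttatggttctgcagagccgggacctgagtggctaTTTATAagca
The windows of Hoxd8 and Hoxd9 had no motif in common among those searched. Hoxd8 held a CCAAT 62 to 58 bases before its start, Hoxd9 a GGGCGG on the minus strand 226 to 221 bases before its start, and Hoxd10 a CCAAT on the minus strand 26 to 22 bases before. Hoxd4 held a CCAAT 208 to 204 bases before its start and a TATAAA on the minus strand 10 to 5 bases before. CCAAT occurred in 33.8% of 32851 mouse promoter windows of this length, GGGCGG in 32.7%, TATAAA in 12.4%, TGACAG in 15.9% and TGATTNAT in 2.82%. No matches in the printed windows overlapped each other. The CpG content of the neighbours was unlike: 20 CpG in the window of Hoxd10, 13 in Hoxd9, 6 in Hoxd8 and 3 in Hoxd4, with a median of 6 over all windows.

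On the deposited log2 scale 88 of the 90 values of the Hoxd genes lay under the median of the whole table, 6.55. The values above it belonged to Hoxd8 in MSC IV. The deposited values carry no detection call, so a low value does not show whether a transcript was present, and differences between low values are compressed.

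Hoxd8, a homeodomain factor of the trunk, measured 6.85 and 6.69 in MSC IV, 6.28 and 6.02 in MSC III, 5.15 and 5.15 in MSC II, 4.91 and 5.15 in MSC V, and 4.92 and 5.10 in MSC I (log2, replicates 1 and 2). Both arrays of MSC IV lay above both of MSC III, and all of these lay above the arrays of MSC I, II and V. The arrays of MSC I and MSC V overlapped each other, and both arrays of MSC II lay just above them, within rounding of the higher one of MSC V. The range of preparation means was 1.76 log2 (adjusted p = 0.000476, limma's moderated F with Benjamini-Hochberg adjustment over 19938 genes). MSC IV averaged 6.77 ± 0.11 (SD, n = 2), against a mean of 5.33 in the other four, a difference of 1.43 ± 0.10 log2 (SE, adjusted p = 0.000394) or 2.70-fold. Between pairs, Hoxd8 was higher in MSC IV than in MSC I by 1.76 ± 0.13 (adjusted p = 0.000181), than in MSC V by 1.74 ± 0.13 (adjusted p = 0.000816) and than in MSC II by 1.62 ± 0.13 (adjusted p = 0.000874). MSC III, at 6.15 ± 0.18 (SD, n = 2), was the second in the order. It was higher than MSC I by 1.14 ± 0.13 (adjusted p = 0.002) and than MSC V by 1.12 ± 0.13 (adjusted p = 0.0106). Against MSC II, at 5.15, the difference was just under the minimum of 1 log2 required of a call (1.00 ± 0.13, adjusted p = 0.0116). The neighbours MSC IV and MSC III in the order of levels differed by 0.62 ± 0.13 (adjusted p = 0.0331), under that minimum, and no difference was called among MSC II, V and I.

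**Figure D1:**
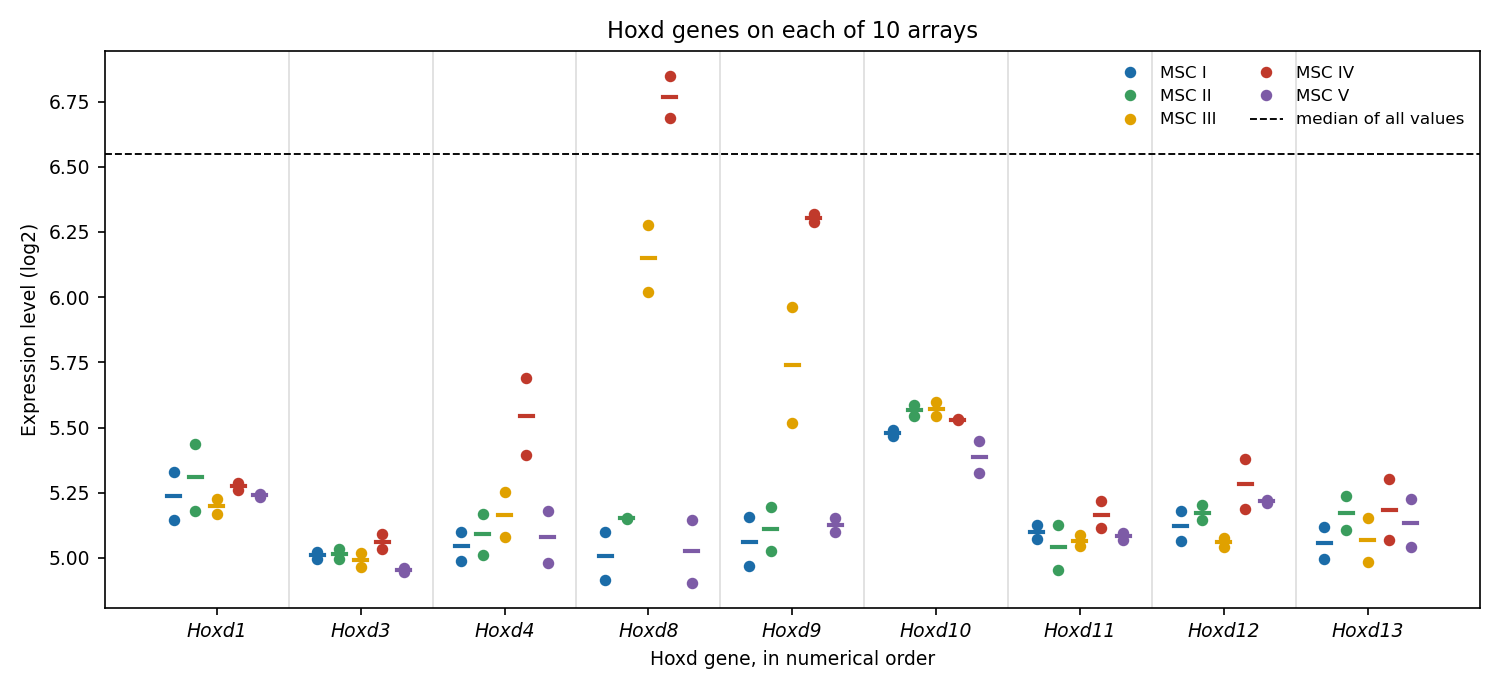
Level (log2, vertical axis) of the 9 Hoxd genes on each of 10 arrays. Points are single arrays coloured by preparation, short bars are means of 2 arrays, and the dashed line is the median of all values of the table, 6.55. Hoxd8 and Hoxd9 stand out in MSC IV and, less, in MSC III, and the values of the genes on either side lie between 4.94 and 5.69.

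Hoxd9, which patterns the upper limb and the trunk together with its paralogs of the other clusters, showed the same order at the top. It measured 6.29 and 6.32 in MSC IV, 5.96 and 5.52 in MSC III, 5.10 and 5.15 in MSC V, 5.03 and 5.19 in MSC II, and 4.97 and 5.16 in MSC I. Again the arrays of MSC IV lay above those of MSC III and these above all others, with no overlap, while MSC I, II and V overlapped. Preparation means spanned 1.24 log2 (adjusted p = 0.00401). MSC IV averaged 6.30 ± 0.020 (SD, n = 2), against 5.26 in the other four, a difference of 1.04 ± 0.12 log2 (SE, adjusted p = 0.00209) or 2.06-fold. The difference was 0.99 without MSC III replicate 2, just under the minimum of 1, and the call of MSC IV against the other four then ended. It ran from 0.99 to 1.18 over the 15 alternatives that tested Hoxd9, which the low-value filters left out. Hoxd9 was higher in MSC IV than in MSC I by 1.24 ± 0.15 (adjusted p = 0.0015), than in MSC II by 1.19 ± 0.15 (adjusted p = 0.00475) and than in MSC V by 1.18 ± 0.15 (adjusted p = 0.00502). MSC IV was above MSC III, at 5.74 ± 0.31 (SD, n = 2), by 0.56 ± 0.15, which missed the threshold (adjusted p = 0.0678). MSC III was above MSC I by 0.68 ± 0.15 (adjusted p = 0.0257), which is under the minimum. Its differences from MSC V (0.61 ± 0.15, adjusted p = 0.0918) and MSC II (0.63 ± 0.15, adjusted p = 0.0723) missed the threshold. The arrays of MSC III lay farther apart than those of any other preparation for this gene. The mean-centred profiles of Hoxd9 and Hoxd8 differed by a root mean square of 0.25 log2 over the 10 arrays, which are pairs of arrays from 5 preparations.

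Hoxd4, which acts in the hindbrain and the neck vertebrae, measured 5.69 and 5.39 in MSC IV, 5.25 and 5.08 in MSC III, 5.01 and 5.17 in MSC II, 4.98 and 5.18 in MSC V, and 4.99 and 5.10 in MSC I. Both values of MSC IV lay above those of all other preparations, which overlapped. The difference between MSC IV and the other four was 0.45 ± 0.10 log2 (5.54 against 5.09, adjusted p = 0.0268), a fold of 1.36, which is under the 2-fold minimum. Over all preparations Hoxd4 missed the threshold (range 0.50 log2, adjusted p = 0.0878). Between MSC IV and MSC III, its neighbour in the order, the difference was 0.38 ± 0.13 (adjusted p = 0.136).

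For the other 6 genes the 10 arrays lay close together. Hoxd10, which with Hoxd9 patterns the upper hindlimb and its nerves, lay between 5.33 and 5.60 on all arrays, with preparation means that spanned 0.18 log2 (adjusted p = 0.214) and MSC V lowest. Hoxd11, which shapes the forearm bones, lay between 4.95 and 5.22 (range of means 0.13, adjusted p = 0.707). The digit genes Hoxd12 (5.04 to 5.38, range of means 0.23, adjusted p = 0.287) and Hoxd13 (4.98 to 5.30, range of means 0.13, adjusted p = 0.819) were as even. At the opposite end, Hoxd1, which acts in pain-sensing neurons of the mouse, lay between 5.15 and 5.44 (range of means 0.11, adjusted p = 0.888) and Hoxd3, which acts in the first neck vertebrae, between 4.94 and 5.09 (range of means 0.11, adjusted p = 0.616). Over the 30 differences of these 6 genes between a preparation and the other four, values ran from -0.15 to 0.14 log2 and the 95% intervals together from -0.30 to 0.29. At the level where these probe sets lie, differences of 1 log2 were therefore outside the intervals, on a scale that compresses low values. The MSC IV arrays had the lowest medians over all genes. The median of MSC IV replicate 2 lay at -0.14 log2 from the mean of the array medians, and centring, which raises both MSC IV arrays, gave adjusted p-values under 0.05 for Hoxd3 (0.21, adjusted p = 0.0341) and Hoxd12 (0.28, adjusted p = 0.036) in MSC IV, both far under the minimum. As deposited, none of the 30 passed the threshold in limma's test (lowest adjusted p = 0.146), and 1 had an unadjusted p under 0.05, Hoxd10 in MSC V (5.39 against 5.54, -0.15 ± 0.05).

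Counted over the cluster, 2 of 9 Hoxd genes (22.2%) differed among the 5 preparations, beside 14.6% of all genes. Set against the other four preparations, MSC IV had 2 higher Hoxd genes, beside 1.77% of all genes. It had 0 lower ones in limma's test, and 0 at an unadjusted p under 0.05, beside 3.84% of all genes called lower. In MSC I limma called 0 Hoxd genes, beside 4.15% of all genes higher and 2.67% lower, and in MSC II 0, beside 1.28% higher and 1.26% lower. The count was also 0 in MSC III, beside 0.567% higher and 0.446% lower, and in MSC V, beside 1.05% higher and 0.662% lower. These shares are of called genes and do not apply at an unadjusted p under 0.05. At that looser threshold there were 2 Hoxd genes in MSC I, 2 in MSC II and 3 in MSC V, all lower. In MSC III there were 2, both higher. Hoxd8 had an adjusted p under 0.05 in each of these preparations, and Hoxd9 in MSC I (-0.51 ± 0.12, adjusted p = 0.0203). The differences of Hoxd8 there were -0.77 ± 0.10 in MSC I, -0.59 ± 0.10 in MSC II, 0.66 ± 0.10 in MSC III and -0.74 ± 0.10 in MSC V, all under 1 log2. These contrasts share arrays, since MSC IV is part of the mean that the others are set against. The median difference of the 9 genes in MSC IV was 0.09 log2, beside 0.02 over all genes. Of 90 combinations of a Hoxd gene and a pair of preparations, 8 were called, 5 of Hoxd8 and 3 of Hoxd9. Both genes were higher in MSC IV than in MSC I (4.27% of all genes called higher), in MSC II (1.57%) and in MSC V (1.73%). Hoxd8 was also higher in MSC III than in MSC I (2.39%) and in MSC V (0.471%). The last of these calls ended without MSC III replicate 1 (adjusted p = 0.0742), without MSC V replicate 1 (adjusted p = 0.0605) and with the arrays of the pair alone (adjusted p = 0.0921).

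**Figure D2:**
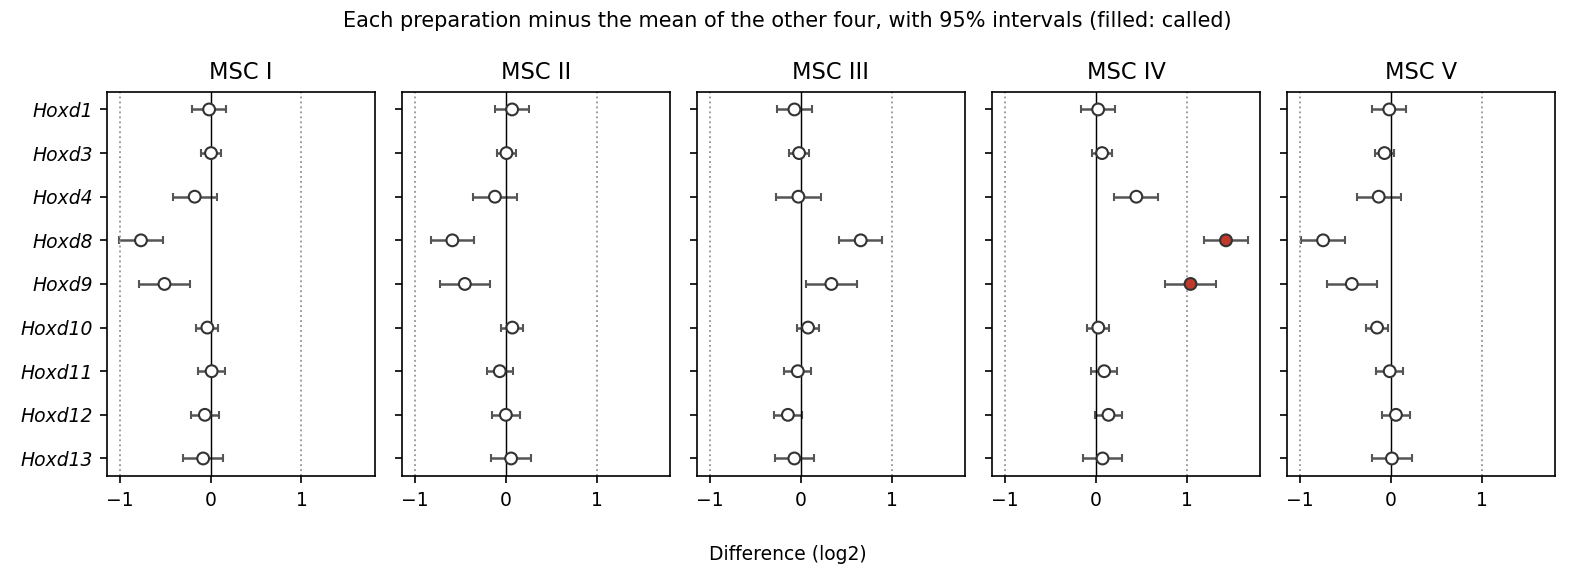
Difference of each preparation from the mean of the other four (log2, horizontal axis) for the 9 Hoxd genes, with 95% intervals from limma's fit; filled points are called, and dotted lines mark 1 log2 either way. MSC IV has the called points, Hoxd8 at 1.43 and Hoxd9 at 1.04, and Hoxd8 lies on the other side of 0 in MSC I, II and V.

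The position of the high genes within the cluster was set against their neighbours on the chromosome. RefSeq places Hoxd13 at chr2:74668225-74671603, Hoxd9 at chr2:74697763-74700208, Hoxd8 at chr2:74704615-74707933 and Hoxd1 at chr2:74762980-74765142, on GRCm38.p6. The starts of Hoxd9 and Hoxd8 are 6.85 kb apart, and the start of Hoxd10 used for its window lies 5.87 kb before that of Hoxd9. The annotated gene of Hoxd3 begins 7.38 kb after the start of Hoxd8 and spans Hoxd4, and that of Hoxd10 overlaps the end of Hoxd11, so the transcripts of these pairs are not fully separate; which exons the probes lie in is not given in the sources used here. Hoxd8 and Hoxd9 overlap no other Hoxd gene. Evx2, the homeobox gene next to Hoxd13, lay between 5.49 and 5.62 on all arrays and was not called (range of means 0.08, adjusted p = 0.805). Inside the cluster, the long noncoding RNA Haglr (4.80 to 5.11, adjusted p = 0.747) and the microRNA gene Mir10b (4.63 to 4.80, adjusted p = 0.603), were likewise not called. The antisense gene Hoxd3os1, chosen after its values were seen, lay between 5.00 and 5.47. Past Hoxd1, the mitochondrial gene Mtx2 was at 10.83 to 11.39 (range of means 0.45, adjusted p = 0.0703), with 11.28 in MSC IV, against 11.17 in the other four. Lnpk, an endoplasmic reticulum gene on the Evx2 side, was at 8.85 to 10.24 (range of means 0.93, adjusted p = 0.0634), with 9.42 in MSC IV, against 9.49 in the other four. Of 10 measured flanking genes 1 was called (10%, beside 14.6% of all genes), Chn1, a GTPase-activating protein gene nearly a megabase away. It was lower in MSC IV (6.74 against 7.77, -1.04 ± 0.20, adjusted p = 0.0139) and in MSC I (5.42 against 8.10, -2.68 ± 0.20, adjusted p = 0.000212) and higher in MSC V (9.52 against 7.08, 2.44 ± 0.20, adjusted p = 0.00208).

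**Figure D3:**
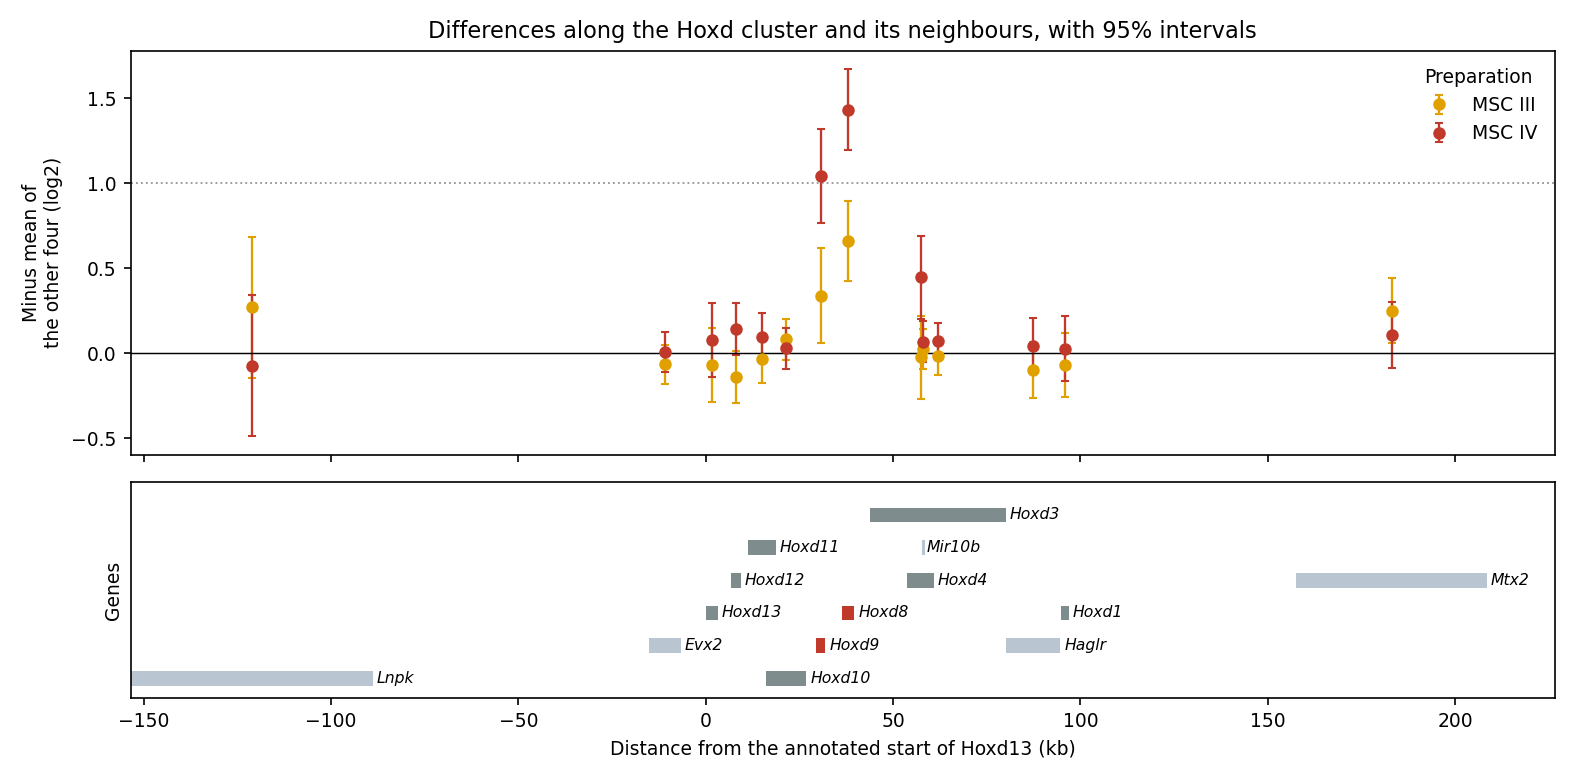
Difference of MSC IV and of MSC III from the mean of the other four (log2, upper panel, with 95% intervals) at the midpoint of each gene, by distance from the annotated start of Hoxd13 in kb; the dotted line marks 1 log2, and the lower panel shows the annotated genes to scale, called Hoxd genes in red. Hoxd9 and Hoxd8 lie above 1 log2 in MSC IV, while Evx2, Haglr, Mir10b and Mtx2 stay between 0.01 and 0.11.

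The vertebrate genome carries 3 further Hox clusters whose genes of the same number are paralogs of the Hoxd genes. Of the measured genes, 6 of 10 Hoxa, 7 of 9 Hoxb and 9 of 9 Hoxc genes differed among preparations, beside 14.6% of all genes. Their median ranges were 1.35, 2.09 and 3.32 log2, beside 0.18 for the Hoxd genes and 0.43 over all genes. These counts and ranges are set side by side and were not tested against each other. Hoxd values lay between 4.91 and 6.85, on a scale that compresses low values. Those of the Hoxa, Hoxb and Hoxc genes reached 10.09, 10.63 and 11.26. Their highest preparations were others than for Hoxd: the called Hoxb genes were highest in MSC II (7 of 7), the called Hoxc genes in MSC I (6) or MSC II (3), and the called Hoxa genes in MSC V (3), MSC I (2) or MSC II (1), whereas both called Hoxd genes were highest in MSC IV. None of the genes of the other clusters was called higher in MSC IV than in the other four, beside 1.77% of all genes. Called lower were 3, Hoxa11 (-1.78), Hoxc12 (-2.80) and Hoxc13 (-1.35), beside 3.84% of all genes. Hoxa11 was also called lower in MSC I (-1.30) and MSC II (-1.74), and Hoxc13 in MSC II (-1.86) and MSC V (-1.24). For number 9, Hoxa9 was 8.02 in MSC IV, against 8.74 in the other four (-0.72 ± 0.22, adjusted p = 0.0636), Hoxb9 was 7.23 against 7.90 (-0.67 ± 0.20, adjusted p = 0.0621) and Hoxc9 was 9.76 against 9.17 (0.60 ± 0.21, adjusted p = 0.107). None of these passed the threshold in this contrast, in which Hoxd9 was called, a call that ended without MSC III replicate 2. Among the 5 preparations Hoxa9, Hoxb9 and Hoxc9 were each called. Their means spanned 2.91, 4.44 and 2.77 log2, more than the 1.24 of Hoxd9. Hoxa9 was lowest in MSC V, at 6.64, and Hoxb9 highest in MSC II, at 10.57. For number 8, Hoxc8 was 8.28 in MSC IV, against 8.68 in the other four (-0.40 ± 0.25, adjusted p = 0.326), and Hoxb8, found just on probe sets that name further genes, was not analysed here. For number 4, Hoxb4 was highest in MSC II (7.27 against 5.16, adjusted p = 3.19e-05) and Hoxc4 lowest in MSC V (5.26 against 7.10, adjusted p = 0.00153).

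**Figure D4:**
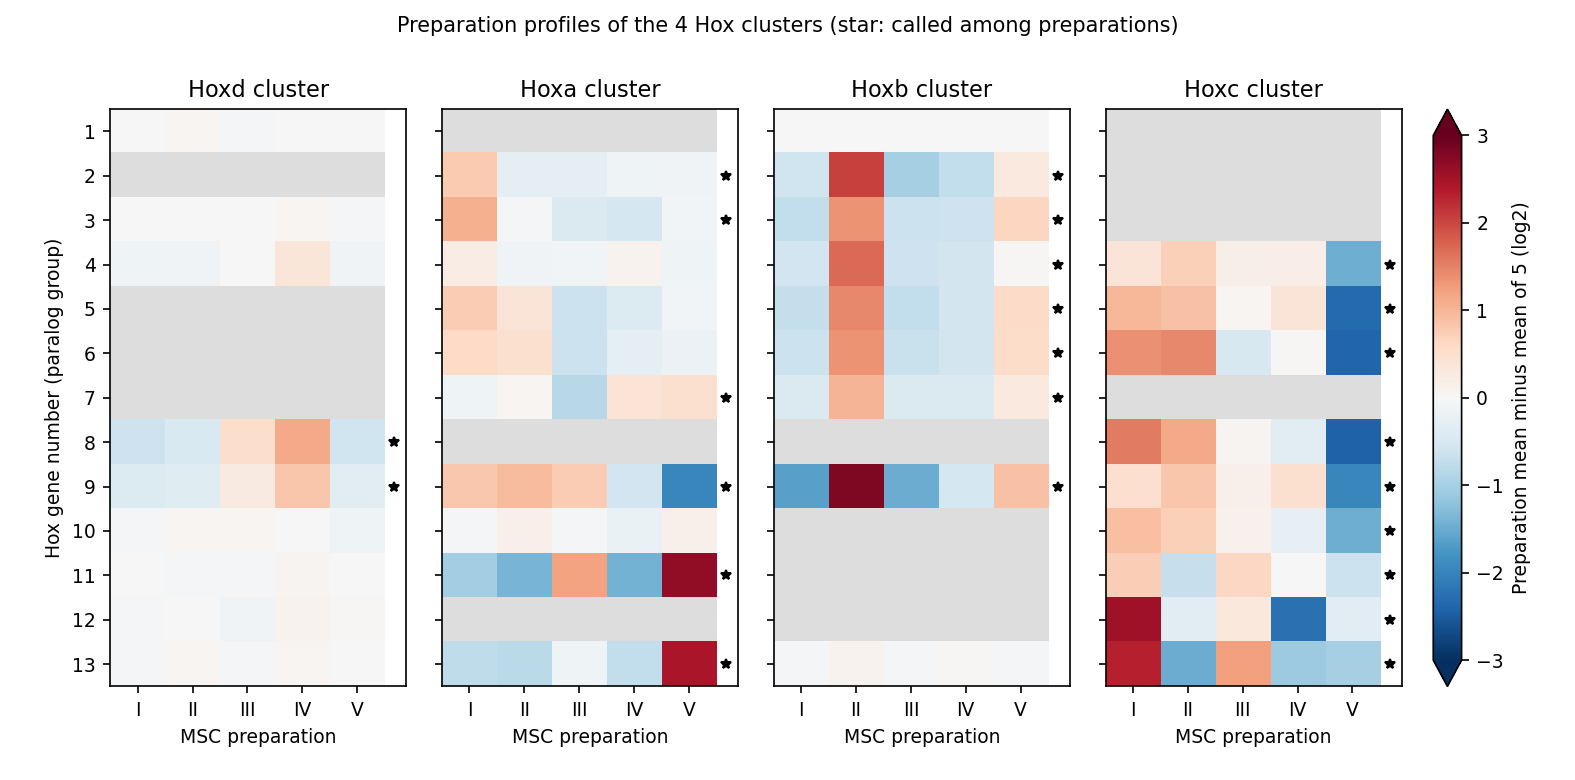
Mean of each preparation minus the mean of 5 preparations (log2, colour, clipped at 3) for the genes of the Hoxd, Hoxa, Hoxb and Hoxc clusters by gene number; grey cells have no measured gene and stars mark genes called among the preparations. The Hoxd panel is pale outside Hoxd8 and Hoxd9, which are highest in MSC IV, the called Hoxb genes are highest in MSC II, and Hoxa11 and Hoxa13 in MSC V.

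Hox proteins bind DNA together with cofactors of the TALE class (Pbx, Meis and Pknox), and their clusters are kept silent by Polycomb complexes, which methylate histone H3 at lysine K27, and kept open by trithorax complexes and K27 demethylases. Of 8 measured TALE genes 4 differed among preparations, Pbx3, Meis2, Meis3 and Pknox2, beside 14.6% of all genes. MSC IV was lower in Pbx3 (9.34 against 10.36, -1.02 ± 0.12, adjusted p = 0.00243) and Pknox2 (6.24 against 8.84, -2.60 ± 0.27, adjusted p = 0.00165). Of 21 Polycomb genes 2 differed (9.52%, beside 14.6% of all genes), Phf19 and Jarid2. Jarid2, which recruits the K27 methylating complex, was 10.05 and 10.16 in MSC IV, against preparation means of 8.83 to 9.29 in the other four; its difference of 0.97 ± 0.12 (adjusted p = 0.00276) was under the minimum. Phf19, another cofactor of that complex, was lower in MSC IV (5.03 against 6.33, -1.29 ± 0.20, adjusted p = 0.00637) and higher in MSC I (8.48 against 5.47, 3.01 ± 0.20, adjusted p = 0.000129). MSC II, III and V were at 5.62, 5.52 and 5.70, so the mean of 6.33 was raised by MSC I. The methylase genes Ezh1 (range of means 0.37, adjusted p = 0.7) and Ezh2 (0.76, adjusted p = 0.0346, under the minimum) were not called. Of 10 trithorax and demethylase genes 1 differed (10%, beside 14.6% of all genes), the demethylase Kdm6b. It had 9.58 in MSC IV, against 8.84 in the other four (0.74 ± 0.10, adjusted p = 0.00461, under the minimum). MSC II was level with MSC IV, at 9.56. The demethylase gene Kdm6a went the other way, with MSC IV lowest at 9.44. Its range of means was 0.71, under the minimum (adjusted p = 0.0134 in limma's F test). Of 8 genes of cluster architecture, CTCF and cohesin among them, limma's F test called 0, beside 14.6% of all genes. The 2 with an unadjusted p under 0.05 were Smc1a (range of means 0.82, adjusted p = 0.023) and Stag1 (0.72, adjusted p = 0.0295). These passed the adjusted p but were under the minimum.

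A further list held 10 genes known to act with or under the Hoxd proteins in the mouse limb. Of these, 4 differed among preparations (40%, beside 14.6% of all genes). Ihh, the hedgehog ligand of growing cartilage, was 7.57 and 7.82 in MSC IV, and between 5.37 and 5.67 on the 8 other arrays. It was higher in MSC IV (7.69 against 5.53, 2.17 ± 0.10 log2, adjusted p = 9.64e-05). The ephrin receptors Epha3 (5.96 against 8.36, -2.40 ± 0.38, adjusted p = 0.00685) and Epha7 (5.24 against 6.94, -1.70 ± 0.17, adjusted p = 0.0013) were lower in MSC IV. They were also lower in MSC II, Epha3 at 5.70 against 8.43 (-2.72 ± 0.38, adjusted p = 0.00717) and Epha7 at 5.18 against 6.96 (-1.78 ± 0.17, adjusted p = 0.00177), and Epha7 in MSC III (5.21 against 6.95, -1.73 ± 0.17, adjusted p = 0.00474), so the low level was shared by several preparations. The growth factor Fgf10 was higher in MSC I (6.52 against 5.47, 1.06 ± 0.10, adjusted p = 0.000641). Shh (5.15 to 5.49) and Hand2 (5.11 to 5.31), the partners of the Hoxd genes in the posterior limb bud, were not called. Both lay under the table median on all 10 arrays, where the scale compresses differences. Ihh and Hoxd8 did not share the step in MSC III: Ihh was 5.52 in MSC III, against 6.07 in the other four, while Hoxd8 was 6.15, against 5.49.

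Of the 11 measured stromal markers, 7 lay above the table median on all 10 arrays, among them Pdgfrb (10.83 to 12.33), the integrin Itgb1 (12.32 to 12.60) and the collagen Col1a1 (10.71 to 12.20). Pdgfra and the collagen Col3a1, also among these 7, were lowest in MSC IV. There Pdgfra was 6.56 and 7.67, the first just above the median, and Col3a1 7.17 and 6.97. The means of Pdgfra spanned 4.34 log2, with MSC I highest. Outside these 7 markers, Vcam1 lay above the median on 9 arrays, Nt5e on 7, the surface glycoprotein gene Thy1 on 3 (5.45 to 7.69) and Eng on 2. Blood cell markers (8 of 10 measured, 4.41 to 5.41) and endothelial markers (6 of 6 measured, 4.79 to 5.32) were low on every array. The F test of limma called 0 of them, Ptprc, Laptm5, Pecam1 and Cdh5 included, beside 14.6% of all genes. At an unadjusted p under 0.05 there were 0 blood and 1 endothelial markers. The latter, Kdr, also passed the adjusted p (0.0115 in the F test) but was under the minimum (range of means 0.45, MSC II highest at 5.28). Stromal surface markers did move with MSC IV. The endoglin gene Eng was 9.60 in MSC IV, against 5.69 in the other four (3.91 ± 0.07, adjusted p = 2.79e-06), and the nucleotidase gene Nt5e 11.21 against 6.95 (4.26 ± 0.31, adjusted p = 0.000456). The adhesion gene Vcam1 was 6.75 in MSC IV, against 10.23 in the other four (-3.49 ± 0.26, adjusted p = 0.000456). In all, 7 of 11 measured stromal markers differed among preparations, beside 14.6% of all genes. In MSC IV 2 stromal markers were called higher and 3 lower than in the other four, and their part in the Hoxd result was not tested.

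Genes whose profile over the 10 arrays was most like that of Hoxd8 were taken by the smallest root mean square difference of mean-centred values among genes outside the Hoxd cluster with a range of at least 1 log2. They were Ltbp4 (0.22 log2), a latent TGF-beta binding protein, the kinesin Kif5c (0.23), Rufy3 (0.25), the phosphatase family gene Plpp7 (0.27) and Tnfaip2 (0.29). Ltbp4, the nearest, averaged 9.34 in MSC IV, 9.02 in MSC III, 7.94 in MSC I, 7.89 in MSC II and 7.80 in MSC V. For Hoxd9 they were the F-box gene Fbxw4 (0.11), the estradiol-forming enzyme Hsd17b1 (0.16), the tyrosine phosphatase Ptpn21 (0.16), riboflavin kinase, Rfk (0.16), and Rufy3 (0.17). Fbxw4, which was chosen by its likeness to Hoxd9, averaged 9.49 in MSC IV, 8.98 in MSC III, 8.51 in MSC V, 8.50 in MSC II and 8.38 in MSC I. The arrays behind this measure come from 5 preparations, and with a Pearson correlation over the same genes outside the cluster 1 of the 5 was shared for Hoxd8 and 1 of 5 for Hoxd9.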

How the data were processed

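The series held 10 single-colour arrays of biotin-labelled total RNA, 2 for each of 5 preparations, grouped by sample title. The deposited values are log2 expression levels of 35399 probe sets; the tools are RMA and Partek, per the submitters' processing notes, which give no versions. By its usual steps RMA removes background, sets the arrays to a common distribution and summarises probes on the log2 scale, which compresses low values. Array medians lay between 6.45 and 6.63, no value was missing and no arrays were identical. Names came from the platform's probe annotation (21789 with 1 symbol, 1621 with several, 11989 with none), updated through gene identifiers to GRCm38.p6, and 19938 genes were kept, with the highest-mean probe set of each.

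Preparation means were fitted with limma 3.58.1 (lmFit, eBayes) in R 4.3.3, with all genes and no low-value filter, so that every Hoxd gene was tested. The moderated F tested all preparations, and contrasts tested each against the other four and all pairs. Tests were two-sided with Benjamini-Hochberg adjustment, and a call needed an adjusted p under 0.05 and 1 log2 (2-fold). Tables and figures were made in Python 3.11.15. In data simulated for MSC IV against the other four over 19938 genes, 87 of 100 genes changed by 1.5 log2 were recovered. Of 100 changed by 3 log2, 98 were recovered, and there were 3 false calls. The simulation had independent noise, no other differences between preparations and the full change at every level. It does not cover changes near 1 log2 or the compression of low values. Members, lists and tests were chosen with earlier results of these data known. Named were all Hoxd genes, members of the gene lists, and the 5 genes outside the cluster most like each of the 2 Hoxd genes of widest range, without predicted names. Some listed genes are not reported here.

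Alternatives were low-value filters, the mean of probe sets, other scalings, a robust variance trend, a block on replicate number, arrays of a pair alone and each array left out. The number of arrays limits the precision.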

Additional observations from a re-analysis of the deposited data

How the results depend on the processing

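Of 17 alternatives, 15 called 2 Hoxd genes among the preparations. With a low-value filter at the table median 1 Hoxd gene, Hoxd8, was tested, which left 1 called among preparations, 1 higher in MSC IV and 5 called pairs; with the filter at the 75th percentile none was tested and these counts were 0, with 1861 of 6940 genes called in all. Leaving out each array in turn gave 1 to 2 Hoxd genes higher in MSC IV, the lower count without MSC III replicate 2. With the replicate number as a block 2 Hoxd genes and 2251 of all genes were called, against 2912 without it, and no Hoxd call ended. The correlation of replicate deviations ran from -0.53 (MSC I and II) to 0.18 (MSC II and III), so the replicate numbers gave no pairing common to all preparations. Its sign depends on which array is numbered 1, and structure shared by arrays of unlike number was not tested. The difference of Hoxd8 in MSC IV ran from 1.35 to 1.57 over 16 alternatives (adjusted p = 6.9e-05 to 0.00615), and it was called in all 16. The call of Hoxd8 in MSC III over MSC V ended without MSC III replicate 1 (0.99, adjusted p = 0.0742), without MSC V replicate 1 (1.00, adjusted p = 0.0605) and with the arrays of the pair alone (1.12, adjusted p = 0.0921). Hoxd8 in MSC II minus MSC III passed without MSC III replicate 2 (-1.13, adjusted p = 0.0416). Array medians lay at -0.14 to 0.06 log2 from their mean, with both MSC IV arrays the lowest, and centring, which raises those arrays, ended no Hoxd call. The low signal of the 6 even genes, with no detection call in the table, limits what their values can show. Flanking genes gave 2 calls, against 1, without MSC I replicate 1, MSC II replicate 1 or MSC IV replicate 1.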
